A study of Mus musculus with 4 samples.

Results

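Adipokines are proteins that fat cells secrete, and the 5 examined here were *Adipoq*, *Retn*, *Cfd*, *Angptl4* and *Nampt*, together with the adiponectin receptor genes *Adipor1* and *Adipor2*. Their rows were found by RefSeq identifier and summed per gene symbol, which gave all 7 genes out of 13085 genes in the tables. RNA was taken from 4 stable lines of 3T3-L1 cells, a mouse preadipocyte line that stores lipid when it is given adipogenic hormones, with 1 library per line. FLAG cells carry the empty FLAG vector and FLAG-CACUL1 cells overexpress FLAG-tagged CACUL1, both transfected and kept under G418. sh-Luc cells carry a hairpin against luciferase and sh-CACUL1 cells a hairpin that depletes CACUL1, both kept under Hygromycin B. All 4 lines were induced with the PPARγ agonist rosiglitazone (5 μM), IBMX (0.5 mM), dexamethasone (1 μg/ml) and insulin (5 μg/ml), were then fed insulin every 2 days, and were harvested after differentiation for 8 days. The lines came from drug-resistant colonies, and whether each was 1 clone or a pool is not given in the sources used here. The question was how transcripts of secreted adipocyte proteins and of the adiponectin receptors stand when CACUL1, which the study describes as a protein that binds the adipogenic nuclear receptor PPARγ and represses it, is raised or depleted.

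Adiponectin, the product of *Adipoq*, is assembled into trimers and larger multimers in the endoplasmic reticulum of adipocytes and then enters the blood. It acts through the membrane proteins AdipoR1 and AdipoR2, which belong to the PAQR family and are linked to ceramide breakdown, AMPK and PPARα. In mice, resistin (*Retn*) and adipsin or complement factor D (*Cfd*) are also made chiefly by adipocytes. ANGPTL4 inhibits lipoprotein lipase and NAMPT makes the NAD precursor nicotinamide mononucleotide inside and outside cells. Many genes of this kind are known to be switched on late in adipogenesis.

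The sequence upstream of the start sites is shown for the 5 members with a RefSeq entry at the start of the measured transcript, because it differs much between them in CG dinucleotides. Each line below gives the 250 bases before the start of a gene's RefSeq transcript in GRCm38.p6, taken from RefSeq and written from 5′ to 3′, with CG dinucleotides in capitals.
Adipoq, chr16:23146286-23146535, plus strand: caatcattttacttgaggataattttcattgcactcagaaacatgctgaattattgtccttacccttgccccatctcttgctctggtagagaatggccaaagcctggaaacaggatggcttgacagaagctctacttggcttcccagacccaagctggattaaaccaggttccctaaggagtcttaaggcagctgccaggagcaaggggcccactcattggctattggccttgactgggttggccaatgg
Retn, chr8:3655520-3655769, plus strand: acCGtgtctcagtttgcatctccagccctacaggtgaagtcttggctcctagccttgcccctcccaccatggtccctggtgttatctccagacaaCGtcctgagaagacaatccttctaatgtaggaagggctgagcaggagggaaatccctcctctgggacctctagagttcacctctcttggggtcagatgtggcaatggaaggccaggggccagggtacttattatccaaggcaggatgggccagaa
Cfd, chr10:79890603-79890852, plus strand: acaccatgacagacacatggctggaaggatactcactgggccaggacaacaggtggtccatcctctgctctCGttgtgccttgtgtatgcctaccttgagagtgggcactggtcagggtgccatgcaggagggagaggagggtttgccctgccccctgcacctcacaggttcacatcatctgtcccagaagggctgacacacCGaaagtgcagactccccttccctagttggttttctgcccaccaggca
Nampt, chr12:32820085-32820334, plus strand: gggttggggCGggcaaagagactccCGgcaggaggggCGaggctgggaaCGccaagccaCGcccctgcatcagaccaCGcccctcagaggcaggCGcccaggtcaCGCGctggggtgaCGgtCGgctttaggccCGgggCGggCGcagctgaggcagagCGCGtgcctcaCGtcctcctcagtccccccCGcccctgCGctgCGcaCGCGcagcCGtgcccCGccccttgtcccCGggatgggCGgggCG
Adipor1, chr1:134415128-134415377, plus strand: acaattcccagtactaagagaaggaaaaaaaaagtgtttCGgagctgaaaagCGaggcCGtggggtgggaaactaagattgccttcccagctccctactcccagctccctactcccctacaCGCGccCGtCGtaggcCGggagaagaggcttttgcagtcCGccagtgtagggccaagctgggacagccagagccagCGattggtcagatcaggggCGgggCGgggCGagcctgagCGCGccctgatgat
The *Adipoq* sequence held 0 CG dinucleotides, which was the case for 7.87% of 32817 upstream sequences of this length. *Retn* and *Cfd* held 2 each, a count that 29.1% of all upstream sequences did not exceed. *Adipor1* held 15 and *Nampt* 27, and 74.6% and 92.4% of all sequences had as few or fewer, against a median of 6.0. The direct repeat AGGTCANAGGTCA, the consensus of PPAR response elements, searched on both strands, was in 0.0335% of all sequences and in none of these 5. The single repeat AGGTCA, which that element contains, was in 14% of all sequences and, of the 5, in *Nampt* only. The adipogenic C/EBP motif TTGCNNAA was found in none of the 5 and in 9.57% of all sequences, and CCAAT was found in *Adipoq* and *Adipor1* and in 33.8% of all. The TATA motif TATAAA was in 12.4% of all sequences and in none of the 5. These matches describe the letters of 5 sequences and mark no bound site. For *Adipor2* the start in the RefSeq table, with 27 CG dinucleotides before it, lies 28970 bases from that of the transcript measured here, so its sequence is not shown. A second *Adipor1* start in the table, 286 bases from the first, had 33. No sequence is shown for *Angptl4*.

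The study also measured *Adipoq* and *Retn* by RT-qPCR, and the primers show which transcripts that assay and the RNA-seq row have in common. In the forward primers the capitals mark the bases that lie past an exon junction.
*Adipoq* forward primer: cgacaccaaaagGGCTCAGG
*Adipoq* reverse primer: ccaacctgcacaagttccct
*Retn* forward primer: tcaactccctgtTTCCAAATGC
*Retn* reverse primer: agttctcaactgaccgacatca
In the GENCODE M21 transcripts the *Adipoq* pair matched NM_009605 and framed 146 bases, with the forward primer on the junction of exons 1 and 2 of 3 and the reverse primer in exon 2. The *Retn* pair framed 246 bases of NM_022984, from the junction of exons 2 and 3 to exon 4 of 4. The *Retn* row of the tables also covers NM_001204959, which the forward primer matched and the reverse primer did not. None of the 4 primers matched a transcript of another gene.

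The members lie on 7 chromosomes of GRCm38, the build that the labels name as mm10. *Adipoq* spans chr16:23146536-23158028 and *Cfd* chr10:79890853-79892655, both on the plus strand. *Retn* spans chr8:3655770-3660110 and *Nampt* chr12:32819545-32853349, also on the plus strand. *Angptl4* spans chr17:33773750-33781830 and *Adipor2* chr6:119353150-119417704, both on the minus strand, and *Adipor1* spans chr1:134415378-134433351 on the plus strand. The transcripts of *Adipoq*, *Retn* and *Cfd* were short, between 871 and 1292 bases with 3 to 5 exons, and those of the other members had 3123 to 4527 bases. The lincRNA gene *Gdap10* lies within *Nampt* on the same strand. No member but *Retn* shared over 1% of its stretches of 31 bases with transcripts of other genes, and *Retn* shared 3.23%.

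Values are FPKM, fragments scaled to transcript length and to the mapped total of the library, so they can be compared between genes. Differences are given on the log2(FPKM + 1) scale, CACUL1 line against the control with the same vector, and the added 1 shrinks them for genes of low FPKM. A gene was counted as different at 2-fold or more in either direction. With 1 library per line no difference could be tested against the spread between cultures, and no p-value is given. *Cacul1* itself had 11.8 FPKM in FLAG-CACUL1 and 9.61 in its control, and 5.39 in sh-CACUL1 and 10.2 in its control. The transcript was therefore lower in the knockdown, but its log2 ratio of -0.82 did not reach 2-fold, where the median of all genes was -0.30. The FLAG-CACUL1 value does not measure the construct if its reads were not counted in that row. The spacing of low FPKM values put the depth at about 14300000 to 23880000 fragments per library, with the highest estimate in sh-Luc. Only in sh-Luc was the best depth clear of the next best, with fit scores of 0.536 and 0.120. The scores were 0.569 and 0.557 in FLAG, 0.588 and 0.500 in FLAG-CACUL1, and 0.647 and 0.560 in sh-CACUL1. Depths and fragment numbers of those libraries are therefore uncertain. FLAG stood apart in *Gapdh*, a glycolytic enzyme gene, with 9160.3 FPKM against 1341.6 to 1850.5 in the other libraries.

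The summed FPKM of 10 adipocyte markers was 15987 in sh-CACUL1, 6808.1 in FLAG, 1648.5 in sh-Luc and 911.5 in FLAG-CACUL1. *Fabp4* alone gave 12543 FPKM of the first sum and 4991.0 of the second, so the order of the sums is largely its order, and *Pparg*, *Cebpa*, *Plin1*, *Lpl* and *Slc2a4* were higher in FLAG than in sh-CACUL1. Against the matched control, all 10 markers were past 2-fold in both CACUL1 lines, lower in FLAG-CACUL1 and higher in sh-CACUL1. Both directions together held for 1.69% of all genes. Between the controls, 8 of the 10 were at least 2-fold higher in FLAG than in sh-Luc, as were 8.58% of all genes. Against sh-Luc, FLAG-CACUL1 had *Cebpa* and *Lpl* higher, at log2 ratios of 0.859 and 0.519, and the other markers lower. For 9 preadipocyte and fibroblast markers the sums were 8002.4 FPKM in FLAG-CACUL1, 5785.3 in FLAG, 3925.8 in sh-Luc and 669.4 in sh-CACUL1. Matrix genes, namely *Col1a1*, *Col3a1* and *Fn1*, made up most of each sum, and *Pdgfra* and *Acta2* were highest in sh-Luc. Of the 9, 5 were at least 2-fold higher and 1 lower in FLAG-CACUL1, and 2 were higher and 6 lower in sh-CACUL1, each against its matched control. Of all genes 7.51% were higher and 7.22% lower in FLAG-CACUL1, and 4.94% and 16.4% in sh-CACUL1. 2 of the 9 markers, *Dlk1* at 0.220 and *Thy1* at 0.663 FPKM, were under 1 FPKM in sh-Luc while they reached 21.2 to 97.2 and 34.3 to 144.2 in the other libraries. Of 8 leukocyte and endothelial markers 4 were analysed, and their sums ran from 3.06 FPKM in sh-CACUL1 to 68.3 in FLAG-CACUL1, the latter mostly *Lyz2* at 66.5. In such bulk RNA a smaller share of adipocytes cannot be told apart from less RNA of a gene in each adipocyte.

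*Adipoq*, the gene of the insulin-sensitising hormone adiponectin, was among the most abundant transcripts where it was high. It had 1251.6 FPKM in sh-CACUL1, 836.6 in FLAG, 171.3 in sh-Luc and 23.0 in FLAG-CACUL1. Its rank among all genes of the library was 29 in sh-CACUL1, 100 in FLAG, 347 in sh-Luc and 2972 in FLAG-CACUL1. FLAG-CACUL1 lay 36.4-fold below FLAG, a log2 ratio of -5.13, and sh-CACUL1 lay 7.31-fold above sh-Luc, a log2 ratio of 2.86. The 2 control lines were not alike either, since FLAG was 4.88-fold above sh-Luc.

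*Cfd*, which encodes the serine protease that activates the alternative complement pathway, spanned a wider range. It had 1159.3 FPKM in sh-CACUL1, 1070.1 in FLAG, 18.5 in sh-Luc and 3.78 in FLAG-CACUL1. The pair of high libraries and the pair of low libraries were thus far apart, and within the high pair the values differed by 1.08-fold. In FLAG-CACUL1 *Cfd* was 283.3-fold below FLAG, and its log2 ratio of -7.81 was the lowest of all 13085 genes. In sh-CACUL1 it was 62.7-fold above sh-Luc, with a log2 ratio of 5.90, in place 4 from the highest. The level in FLAG was 57.9-fold above that in sh-Luc, which is nearly as large as the difference between sh-CACUL1 and sh-Luc.

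*Retn*, the gene of the cysteine-rich hormone resistin, was the least abundant of the 5 adipokines in 3 of the 4 libraries, sh-CACUL1 being the exception. It had 109.3 FPKM in sh-CACUL1, 36.9 in FLAG, 1.34 in FLAG-CACUL1 and 0.192 in sh-Luc, so its lowest library was the sh-Luc control and not FLAG-CACUL1. The value in sh-Luc stands for about 4.01 to 5.23 fragments and that in FLAG-CACUL1 for about 16.7 to 21.8, depending on which of its transcripts sets the length. FLAG-CACUL1 had *Retn* 27.5-fold below the FLAG level, with a log2 ratio of -4.02. The FPKM ratio of sh-CACUL1 to sh-Luc was 568.1, which rests on those few fragments. Its log2 ratio of 6.53 was the highest of all genes in that comparison.

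**Figure D1:**
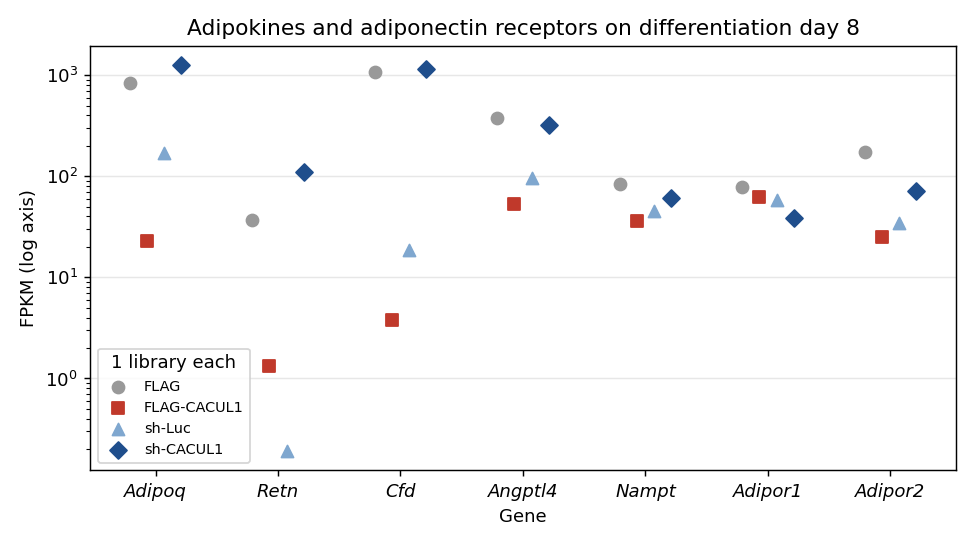
FPKM (log axis) of the 7 genes in each of the 4 libraries, 1 point per library. *Adipoq*, *Retn* and *Cfd* are spread over 54.5-fold to 568.1-fold, while the 4 points of *Nampt* and of *Adipor1* lie within 2.32-fold and 2.01-fold.

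*Angptl4*, the gene of the secreted inhibitor of lipoprotein lipase and a known target of PPARs and of low oxygen, varied less. It had 379.1 FPKM in FLAG, 317.7 in sh-CACUL1, 96.0 in sh-Luc and 53.5 in FLAG-CACUL1. Its log2 ratio was -2.80 (7.09-fold lower) in the overexpressing line and 1.72 (3.31-fold higher) in the knockdown line, each against its own control. FLAG was 3.95-fold above sh-Luc. *Lpl*, the gene of the enzyme that ANGPTL4 inhibits, took the same sides with smaller ratios, at 511.8 FPKM in FLAG-CACUL1 against 1142.6 and 1060.3 in sh-CACUL1 against 356.8. The ratio of *Angptl4* to *Lpl* within a library was 0.332 in FLAG, 0.269 in sh-Luc and 0.300 in sh-CACUL1 but 0.104 in FLAG-CACUL1. This ratio does not depend on scaling between libraries.

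*Nampt*, the gene of the rate-limiting enzyme of NAD salvage, had 83.3 FPKM in FLAG, 61.1 in sh-CACUL1, 45.4 in sh-Luc and 35.9 in FLAG-CACUL1. The order of the libraries was that of *Angptl4* and *Adipor2*, within a total range of 2.32-fold. FLAG-CACUL1 lay 2.32-fold below FLAG, with a log2 ratio of -1.19 that turned to 1.07 after scaling to *Gapdh*. The 1.35-fold higher value in sh-CACUL1 did not reach 2-fold. Its log2 ratio of 0.42 rose to 0.70 after quantile normalization and to 0.89 after median-of-ratios scaling, still under 2-fold. *Nampt* was the one adipokine of the 5 that passed 2-fold in a single CACUL1 comparison.

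The receptor genes took different courses. *Adipor1*, whose product is the receptor linked chiefly to AMPK, had 77.8 FPKM in FLAG against 62.3 in FLAG-CACUL1, and 57.9 in sh-Luc against 38.7 in sh-CACUL1. It was 1.25-fold and 1.5-fold below the matched control, so both CACUL1 lines were on the lower side and neither reached 2-fold, although scaling to *Gapdh* turned the FLAG-CACUL1 value to the higher side. In sh-CACUL1 the *Adipor1* log2 ratio of -0.57 shrank to -0.26 after quantile normalization and to -0.11 after median-of-ratios scaling. *Adipor2*, whose product is linked chiefly to PPARα, had 175.5 FPKM in FLAG, 70.6 in sh-CACUL1, 34.7 in sh-Luc and 25.1 in FLAG-CACUL1. Its FLAG-CACUL1 level was 6.98-fold below FLAG, with a log2 ratio of -2.76. In sh-CACUL1 it was 2.04-fold above sh-Luc, and its log2 ratio of 1.00 lay just past the 2-fold line.

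The more abundant receptor transcript differed between libraries. *Adipor2* made up 69.3% of the summed receptor FPKM in FLAG and 64.6% in sh-CACUL1, but 37.5% in sh-Luc and 28.7% in FLAG-CACUL1. The receptor sum itself was 253.3 FPKM in FLAG, 109.2 in sh-CACUL1, 92.6 in sh-Luc and 87.4 in FLAG-CACUL1. FLAG alone was thus well above the others in total receptor transcript. The ratio of *Adipoq* to *Adipor1* was 32.4 in sh-CACUL1, 10.7 in FLAG, 2.96 in sh-Luc and 0.369 in FLAG-CACUL1, so that the hormone transcript was less abundant than this receptor's transcript in FLAG-CACUL1 only. Against *Adipor2* it was 17.7, 4.77, 4.94 and 0.914 in the same order, and by this measure both controls were close.

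**Figure D2:**
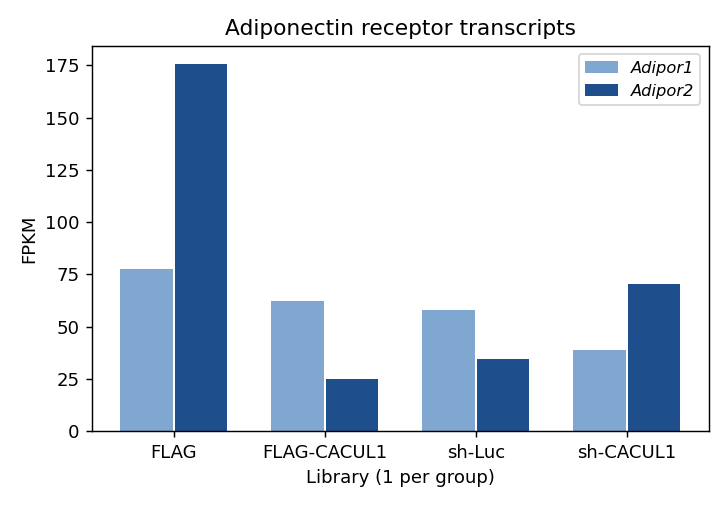
FPKM of *Adipor1* (light bars) and *Adipor2* (dark bars) in each library, 1 library per group and no error bars. *Adipor2* is the higher bar in FLAG (175.5 against 77.8) and sh-CACUL1 (70.6 against 38.7), and *Adipor1* in FLAG-CACUL1 and sh-Luc.

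In FLAG-CACUL1 against FLAG, 6 of the 7 members were at least 2-fold lower and 0 were higher, where 7.22% of all genes were lower and 7.51% higher. The members' median log2 ratio was -2.80 and that of all genes 0.09. In sh-CACUL1 against sh-Luc, 5 of 7 were at least 2-fold higher and 0 lower, where 4.94% of all genes were higher and 16.4% lower. The medians were 1.72 for the members and -0.30 for all genes. Both directions together held for *Adipoq*, *Retn*, *Cfd*, *Angptl4* and *Adipor2*, against 1.69% of all genes. The same 5 were also at least 2-fold higher in FLAG than in sh-Luc, a combination found for 1.23% of all genes. So were 161 of the 221 genes with both directions. The comparison of the controls reuses FLAG and sh-Luc, so it is not independent of the others. The 2 CACUL1 comparisons share no library with each other. The members had been chosen with earlier results of these data known, so the counts describe them and do not test them.

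The split of all genes into higher and lower depended on the scaling, whereas the counts of members in the 2 CACUL1 comparisons were the same under 3 of the 4 scalings tried. In sh-CACUL1 against sh-Luc 4.94% of genes were higher and 16.4% lower as deposited, 9.0% and 8.28% after quantile normalization, 7.94% and 15.7% on a TPM scale, and 9.41% and 7.45% once libraries were scaled by their median of ratios. The latter scaling moved the shares in FLAG-CACUL1 to 5.77% higher and 8.93% lower. Under quantile normalization, median-of-ratios scaling and the TPM scale the same 6 members stayed lower and the same 5 stayed higher. Scaling to *Gapdh*, the reference of the study's RT-qPCR, put *Nampt* and *Adipor1* on the higher side in FLAG-CACUL1, with log2 ratios of 1.07 and 1.95, and left *Adipoq*, *Retn* and *Cfd* at least 2-fold lower at -2.85, -2.09 and -5.65. By that scaling 76.9% of all genes were higher in FLAG-CACUL1 and 0.596% lower, and in sh-CACUL1 *Adipor2* did not reach 2-fold at 0.94.

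**Figure D3:**
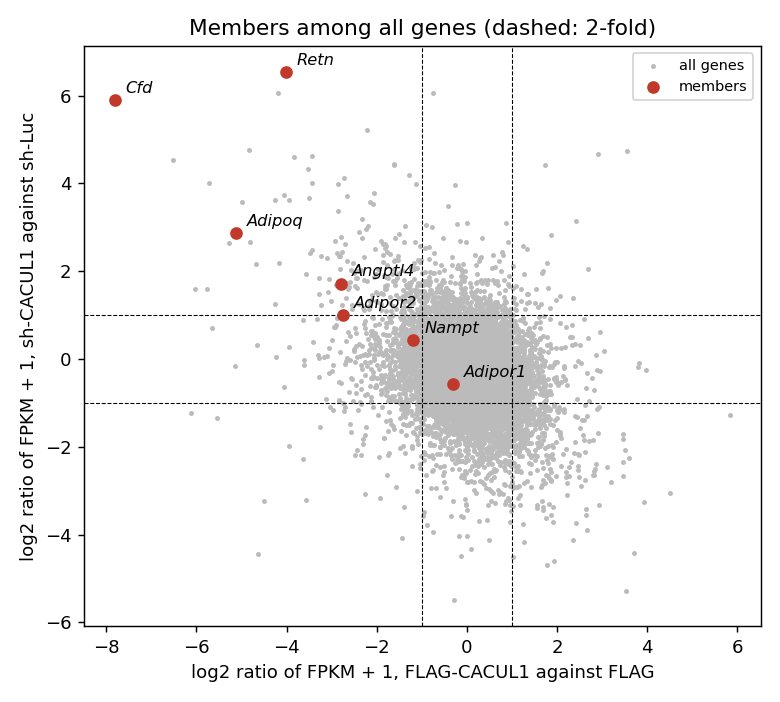
Log2 ratio of FPKM + 1 for all 13085 genes (grey) and the 7 members (red), with FLAG-CACUL1 against FLAG on the horizontal axis and sh-CACUL1 against sh-Luc on the vertical axis. *Cfd* at -7.81 and 5.90, *Retn* at -4.02 and 6.53 and *Adipoq* at -5.13 and 2.86 lie far to the upper left, and *Adipor1* lies within the 2-fold lines.

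The control lines also differed from one another. In FLAG against sh-Luc 5 of the 7 members were at least 2-fold higher, where 8.58% of all genes were higher and 12.4% lower, with a median log2 ratio of 2.28 for the members and -0.18 for all genes. The shares of all genes were 10.3% higher and 8.74% lower after quantile normalization, 8.25% and 20.8% on the TPM scale, and 12% and 7.16% after median-of-ratios scaling. Under the last of these *Nampt*, at 1.15, joined the members past 2-fold, which made 6 of 7. The 5 were *Adipoq* with a log2 ratio of 2.28, *Retn* with 4.99, *Cfd* with 5.78, *Angptl4* with 1.97 and *Adipor2* with 2.31. After scaling to *Gapdh* only *Retn* and *Cfd* of these were still at least 2-fold higher, and *Nampt* and *Adipor1* were at least 2-fold lower, as were 81.9% of all genes. The comparison shares FLAG with the first comparison and sh-Luc with the second, so it is not independent of them. Vector, selection drug and line all differ between the controls, and their parts cannot be told apart.

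When each CACUL1 line was set against the other control, most differences were smaller. FLAG-CACUL1 against sh-Luc left 2 members at least 2-fold apart, both lower, where 4.87% of all genes were lower and 5.04% higher. *Adipoq* was 7.46-fold lower, with a log2 ratio of -2.85, and *Cfd* 4.90-fold lower, with a log2 ratio of -2.03. *Retn* had a log2 ratio of 0.97 in the opposite direction, from 1.34 and 0.192 FPKM, a raw ratio of 6.97 that the added 1 brings under 2-fold. sh-CACUL1 against FLAG likewise left 2 members, 1 in each direction, where 7.45% of all genes were higher and 15.4% lower. *Retn* was 2.96-fold higher, and *Adipor2* was 2.49-fold lower, opposite to its direction against sh-Luc. *Adipoq* was 1.5-fold higher and *Cfd* 1.08-fold higher, both under 2-fold. *Adipor1*, at 38.7 against 77.8 FPKM, was 2.01-fold lower in raw FPKM and just short of 2-fold with the added 1, at a log2 ratio of -0.99. *Adipoq* and *Cfd* were thus the members at least 2-fold lower in FLAG-CACUL1 against both controls, and *Retn* was the member at least 2-fold higher in sh-CACUL1 against both.

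**Figure D4:**
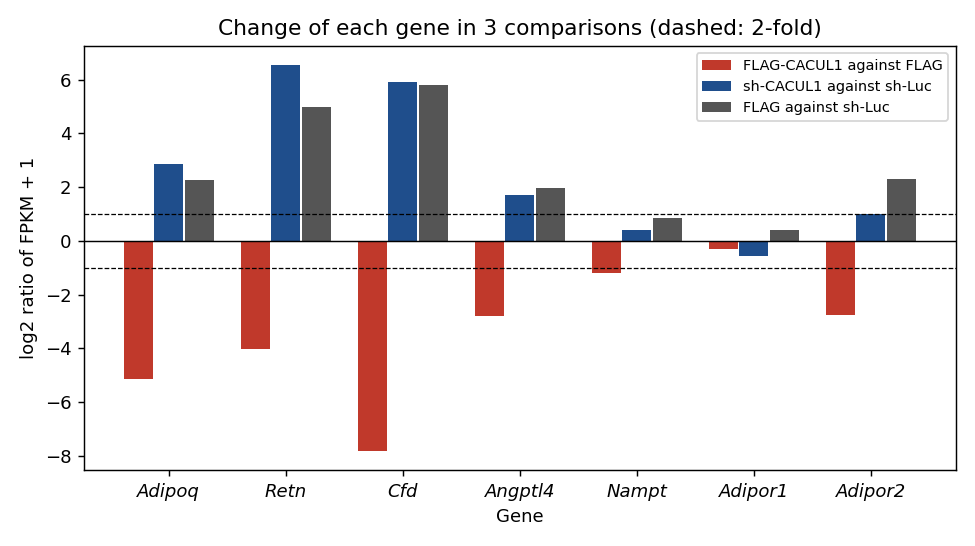
Log2 ratio of FPKM + 1 of each gene in FLAG-CACUL1 against FLAG (red), sh-CACUL1 against sh-Luc (blue) and FLAG against sh-Luc (grey), with dashed lines at 2-fold and 1 library per group. For *Cfd* the blue and grey bars are nearly as high (5.90 and 5.78), and for *Angptl4* and *Adipor2* the grey bar is higher than the blue one.

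Set beside the 10 adipocyte markers, the members differed in how far they lay from the markers. In FLAG-CACUL1 against FLAG the markers had log2 ratios from -5.72 to -1.16 with a median of -2.93. *Angptl4* and *Adipor2* were within 0.17 of that median, *Adipoq* was below it by 2.20 and *Retn* by 1.09, and *Cfd* was below all 10 markers. *Nampt* was above 9 of the 10 and *Adipor1* above all. In sh-CACUL1 against sh-Luc the markers ran from 1.48 to 4.01 with a median of 2.46. *Retn* and *Cfd* were above all 10, *Adipoq* was above 8, *Angptl4* was above 2, and *Adipor2*, *Nampt* and *Adipor1* were below all. *Pparg*, the gene of the master regulator of adipogenesis, had 70.1 FPKM in FLAG, 61.8 in sh-CACUL1, 14.8 in sh-Luc and 12.3 in FLAG-CACUL1, the order seen for *Angptl4*, *Nampt* and *Adipor2*. *Cebpa*, which encodes its partner in the adipogenic cascade, had 9.16, 2.97, 0.421 and 1.58 FPKM in that order. In the study's RT-qPCR of adipogenic genes, *Cebpa* was the exception. The rest of those genes were lower with CACUL1 overexpression and higher with its depletion. The ratio of *Adipoq* to *Pparg* was 11.9 in FLAG, 11.6 in sh-Luc and 20.2 in sh-CACUL1 but 1.87 in FLAG-CACUL1. *Adipoq* against *Fabp4* varied less, from 0.0717 in FLAG-CACUL1 to 0.168 in both controls. What part the differing levels of adipocyte markers have in the members' values was not tested.

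The other genes around these hormones were counted in 7 lists drawn up by role. Of 24 other secreted adipocyte factors 15 had a row and were analysed, and *Lep* (leptin) and *Rbp4* were among the 9 not analysed here. In FLAG-CACUL1 6 of the 15 were at least 2-fold lower and 2 higher, where 7.22% of all genes were lower and 7.51% higher. In sh-CACUL1 4 were higher and 4 lower, where 4.94% of all genes were higher and 16.4% lower. Counts of the lists were taken on the deposited scale only. The list's median log2 ratios, -0.31 and 0.02, lay nearer to those of all genes, 0.09 and -0.30, than the members' medians did. *Rarres2*, the gene of the adipokine chemerin, took the same sides as the members, with 139.6 FPKM in FLAG-CACUL1 against 1587.9, and 376.4 in sh-CACUL1 against 28.9. So did *Orm1*, which encodes an acute phase protein, with log2 ratios of -2.19 and 3.03, and the angiogenic factor gene *Vegfa*, with -2.34 and 2.04. *Ccl2*, a chemokine gene, took the opposite sides at 2.36 and -4.12. With the other control, sh-Luc for FLAG-CACUL1 and FLAG for sh-CACUL1, *Rarres2* turned to 2.23 and -2.07 and *Vegfa* to 0.865 and -1.17. *Orm1* and *Ccl2* kept their sides there, at -0.374 and 1.21 and at 3.12 and -4.88. In FLAG-CACUL1 the cytokine gene *Il6* was also higher than in FLAG, at 1.41. *Apln*, *Metrnl* and *Cfb* were lower there, at -1.11, -1.09 and -1.24 (*Cfb* encodes the substrate of adipsin). Against sh-Luc, however, *Apln*, *Metrnl* and *Cfb* were higher in FLAG-CACUL1, at 2.47, 0.103 and 2.81, as was *Il6* at 2.05. In sh-CACUL1, on the deposited scale, *Grn*, *Tgfb1* and *Ccn5* were also lower, at -1.33, -1.55 and -1.80, and *Lcn2* was higher, at 2.69.

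Many factors of this list also differed between the controls. Of the 15 factors 10 were at least 2-fold higher in FLAG than in sh-Luc and 0 lower, where 8.58% of all genes were higher and 12.4% lower as deposited and 81.9% were lower after scaling to *Gapdh*. *Lcn2*, the gene of lipocalin 2, had 1580.9 FPKM in FLAG and 1423.8 in FLAG-CACUL1 but 5.71 in sh-Luc and 42.3 in sh-CACUL1. *C1qtnf12*, which encodes the adipokine adipolin, had 12 FPKM in FLAG, 5.36 in sh-CACUL1, 0.935 in sh-Luc and 0.821 in FLAG-CACUL1, the order of *Angptl4*. Its family, the C1q and TNF related proteins that resemble adiponectin, had 4 genes analysed of 9 listed. Of these 1 was higher and 1 lower in each CACUL1 comparison, with medians of 0.77 and -0.56. The shares of all genes were 7.51% higher and 7.22% lower in FLAG-CACUL1, and 4.94% and 16.4% in sh-CACUL1. *C1qtnf6* took the sides opposite to *C1qtnf12*, with log2 ratios of 1.83 and -1.15. Against the other control *C1qtnf6* was under 2-fold in both CACUL1 lines, at 0.485 and 0.195.

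Genes that assemble adiponectin or carry its signal were mostly under 2-fold in both comparisons. Of 20 listed 17 were analysed, of which 3 were lower and 1 higher in FLAG-CACUL1, where 7.22% of all genes were lower and 7.51% higher. In sh-CACUL1 5 were lower and 0 higher, where 16.4% of all genes were lower and 4.94% higher. Median-of-ratios scaling moved those shares to 7.45% and 9.41%, with a median shift of 0.41 in the log2 ratio of all genes. List genes were not counted under that scaling, so those lower by little more than 2-fold in sh-CACUL1 may not pass it there. The list's medians were 0.04 and -0.68, and those of all genes 0.09 and -0.30. *Erp44*, which encodes the chaperone that retains adiponectin, had 29.7 FPKM in FLAG against 29.5 in FLAG-CACUL1, and 23.6 in sh-Luc against 16.6 in sh-CACUL1. *Ero1a*, the gene of the oxidase that works with ERp44 in adiponectin release, was at 338.9 FPKM in FLAG-CACUL1 against 2673.2, and at 52.3 in sh-CACUL1 against 118.5. It was thus lower in both CACUL1 lines than in the matched control. Against sh-Luc, however, FLAG-CACUL1 was higher, with a log2 ratio of 1.51. *Gstk1*, whose product aids multimer formation, stayed between 3.45 and 4.35 FPKM. *Cdh13*, which encodes the adiponectin-binding T-cadherin, was lower in both CACUL1 lines against the matched control, with log2 ratios of -1.92 and -3.17. It was also lower in both against the other control, at -2.57 and -2.52. *Appl1*, the gene of the adaptor that binds the receptors, stayed between 3.9 and 6.21 FPKM, and *Camkk2*, which encodes an upstream kinase of AMPK, had log2 ratios of 1.99 and -1.35. Against the other control *Camkk2* was under 2-fold in both CACUL1 lines, at 0.475 and 0.168. The remaining gene past 2-fold in FLAG-CACUL1 was the protein disulfide isomerase gene *P4hb* at -1.46, and those in sh-CACUL1 were the AMPK subunit gene *Prkab1* at -1.12 and the acid ceramidase gene *Asah1* at -1.44.

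Relatives and partners of the other members were mixed. Beside the counts that follow, 7.22% of all genes were lower and 7.51% higher in FLAG-CACUL1, and 16.4% and 4.94% in sh-CACUL1. With few genes in each list, the counts are not read as results about a list. Among 4 other PAQR family genes analysed of 9 listed, whose medians were -0.22 and 0.02, *Paqr4* took the sides of *Adipor2*, with 3.67 FPKM in FLAG-CACUL1 against 28.6 and 62.0 in sh-CACUL1 against 12.4, and *Paqr8* was lower in sh-CACUL1 with a log2 ratio of -1.44. Of 15 genes of NAD synthesis and use 12 were analysed, with medians of -0.26 and -0.16. Of these *Nadk2* was lower in FLAG-CACUL1 at -2.12, *Sirt1* was higher there at 1.02, and 0 passed 2-fold in sh-CACUL1. *Sirt1* just passed the cut-off, from 0.602 FPKM in FLAG to 2.24 in FLAG-CACUL1, and sh-Luc had 2.69. Against sh-Luc neither gene passed 2-fold in FLAG-CACUL1, with log2 ratios of -0.386 for *Nadk2* and -0.190 for *Sirt1*. *Nmnat1*, which encodes the enzyme that follows NAMPT, stayed between 2.77 and 4.03 FPKM, and *Nnmt*, which consumes its substrate nicotinamide, ranged from 24.0 FPKM in FLAG to 43.0 in sh-CACUL1. Of 10 genes around lipoprotein lipase 8 were analysed, with medians of -0.13 and -0.18. Of these *Lpl* alone was past 2-fold in both comparisons, with log2 ratios of -1.16 and 1.57. *Furin*, whose protease cuts ANGPTL4, was lower in sh-CACUL1 at -1.09 on the deposited scale, near the 2-fold line. Of 7 genes of the resistin family and its reported receptors 4 were analysed, none of them a resistin-like gene, with medians of 0.47 and -1.30. *Cap1*, the gene of a reported resistin receptor, had 84.1 FPKM in FLAG-CACUL1 and 70.9 in FLAG, and 27.5 in sh-CACUL1 against 86.1 in sh-Luc. *Dcn*, the decorin gene, a form of which has been reported to bind resistin, had 770.0, 99.7, 9.60 and 105.7 FPKM in that order of libraries, so *Dcn* took the sides opposite to *Retn* in both comparisons.

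**Figure D5:**
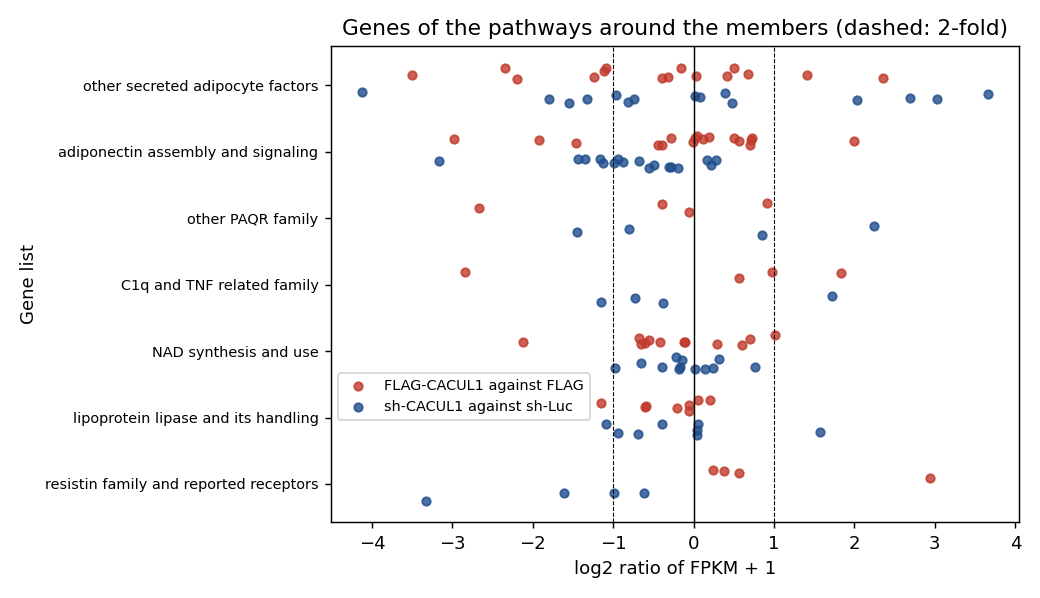
Log2 ratio of FPKM + 1 of each analysed gene in 7 lists around the members, 1 point per gene, in FLAG-CACUL1 against FLAG (red) and sh-CACUL1 against sh-Luc (blue). The secreted factors reach from -4.12 (*Ccl2*) to 3.66 (*Rarres2*), while most genes of NAD synthesis and use lie within the dashed 2-fold lines.

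The genes most like each member over the 4 libraries were found by the root mean square difference of their mean-centred log2(FPKM + 1) values, among 10833 genes with a mean of at least 1 FPKM. For *Adipoq* they were *Fabp4*, a fatty acid binding protein gene, with a difference of 0.504, *Gpd1* with 0.560 and *S100a1* with 0.608. For *Cfd* they were the desaturase gene *Scd1* with 0.909, *Mrap* with 1.14 and *Retn* with 1.41, so that no gene followed *Cfd* closely. For *Retn* the nearest was *Eif3j1* with 0.685, followed by *Mrap* with 0.717 and *Prxl2a* with 0.736. *Eif3j1* has a near-identical copy, *Eif3j2*, between which counting may split reads. *Eif3j2* was at 25.7 to 27.5 FPKM in FLAG-CACUL1 and sh-Luc, where *Eif3j1* was at 0.0564 to 0.0936. In sh-CACUL1 and FLAG *Eif3j2* was at 0.0357 and 7.30, where *Eif3j1* was at 24.7 and 14.5. The copies thus ran opposite to each other, which leaves the *Eif3j1* values, and its place beside *Retn*, uncertain.

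The remaining members had closer neighbours. For *Angptl4* they were *Arxes2* with 0.103, *Bcar3* with 0.141 and *Vsir* with 0.166, and for *Adipor2* they were *Dysf* with 0.193, *Acy3* with 0.217 and *Tlcd3b* with 0.224. *Angptl4* and *Adipor2* differed from each other by 0.44, the closest pair of members. For *Nampt* they were *Ano10* with 0.030, *Dgkd* with 0.043 and the lipid droplet gene *Plin4* with 0.047, and for *Adipor1* they were *Ppp1r18* with 0.019, *Mettl21a* with 0.023 and *Ubald1* with 0.026. Genes with a narrow range have many near neighbours by this measure, and 4 libraries are too few to tell a shared course from chance likeness.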

How the data were processed

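Total RNA from 4 stable 3T3-L1 lines, 1 library each, was turned into mRNA-seq libraries and sequenced by a company. The authors deposited FPKM values for 13110 rows of RefSeq transcripts per library on mm10. Neither aligner nor FPKM program nor any filter on low values is given in the sources used here. Rows were named through GENCODE M21, in which 191 rows had no symbol and 8 had more than 1, and rows of 1 symbol were summed to 13085 genes. Log2 ratios used a pseudocount of 1, and 2-fold or more counted as a difference. No test was made, and with 1 library per line the spread between cultures behind the calls is not known. Library depths are estimates from the spacing of low FPKM values, and fragments of a gene follow from them.

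The members, lists and rules were chosen with earlier results of these data known. Named genes are the 7 members, list genes past 2-fold in both CACUL1 comparisons with at least 1 FPKM in a library, fixed partners and regulators, and the 3 nearest genes per member. List genes past 2-fold in 1 comparison, and Eif3j2, were named after their values were seen, and 1 list gene is not reported here. Primer sequences came from the study's primer list. The alternatives were a pseudocount of 0.1 or none, 2 filters at 1 FPKM, 4 scalings, the highest row per symbol, a 3-fold cut-off and the other control. Python 3.11.15, numpy 2.4.6, pandas 2.3.3 and matplotlib 3.10.9 were used.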

Additional observations from a re-analysis of the deposited data

How the results depend on the processing

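No paired analysis was possible because each group holds 1 library. With the other control the count of members past 2-fold was 2 in place of 6 for FLAG-CACUL1 and 2 in place of 5 for sh-CACUL1. Directions then turned for *Retn* in FLAG-CACUL1, at a log2 ratio of 0.97, and for *Angptl4* and *Adipor2* in sh-CACUL1, at -0.25 and -1.30. Of values under 2-fold, *Nampt* in sh-CACUL1 turned to -0.44 and *Adipor1* in FLAG-CACUL1 to 0.10. Scaling to *Gapdh* turned *Nampt* in FLAG-CACUL1 to 1.07, and turned *Adipoq*, *Angptl4* and *Adipor2* in FLAG against sh-Luc to -0.48, -0.79 and -0.43. Of values under 2-fold, it turned *Adipor1* in FLAG-CACUL1 to 1.95, and *Nampt* and *Adipor1* in FLAG against sh-Luc to -1.86 and -2.31. These turns follow from the level of the exchanged control and of *Gapdh* in FLAG. In the other alternatives the counts of members stayed within 1.5 times the main value and no member past 2-fold changed direction. *Retn* left the table when 1 FPKM was required in all 4 libraries. Over all genes, counts past 2-fold went from 1928 in FLAG-CACUL1, 2788 in sh-CACUL1 and 2750 between the controls to 3775, 4799 and 4711 with no pseudocount and to 663, 936 and 994 at 3-fold. In FLAG-CACUL1 a pseudocount of 0.1 gave 3161, and scaling to *Gapdh* gave 10137 there and 10857 between the controls. The median log2 ratio of all genes moved by 0.38 and 0.41 in sh-CACUL1 under quantile normalization and median-of-ratios scaling, and by 1.94 and -2.38 under *Gapdh* in FLAG-CACUL1 and between the controls. The depth limits *Retn* in sh-Luc most, at about 4.01 to 5.23 fragments.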
